A study of Mus musculus with 32 samples.

Results

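Phosphate, pyrophosphate and mineral in bone-forming cells are handled by a small set of enzymes and transporters, of which 9 mouse genes were followed here out of 31053 genes counted in the deposited matrices. They were taken by gene symbol and are *Alpl*, *Enpp1*, *Ank*, *Phospho1*, *Smpd3*, *Slc20a1*, *Slc20a2*, *Slc13a5* and *Ifitm5*. All 9 were found once each. The data were single-cell RNA-seq (scRNA-seq) counts of BMSC-OBs, stromal cells from bone marrow that had been driven towards osteoblasts in culture. The donors were Diversity Outbred (DO) mice, a genetically diverse population bred from several inbred strains. Cells of 77 mice were combined in 16 pools of 4 or 5 mice, and every pool was sequenced in 2 runs, of which HGYVNCCX2 was used and HHFFMCCX2 served as a repeat. All pools received the same treatment: adherent femoral marrow cells were grown to confluence and then kept in medium with ascorbic acid, β-glycerophosphate and dexamethasone, so there was no untreated arm, and cells were not assigned to individual mice here. β-Glycerophosphate is an organic phosphate ester that alkaline phosphatase can cleave, and the cells were released from mineralizing cultures with EDTA, collagenase and trypsin.

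Mineral forms in bone when phosphate and calcium accumulate faster than inhibitors can hold them in solution. Pyrophosphate is the main small inhibitor: ENPP1 makes it outside the cell from nucleotides, ANK helps to bring it (with ATP) out of the cell, and tissue-nonspecific alkaline phosphatase, encoded by *Alpl*, cleaves it to phosphate. PHOSPHO1 releases phosphate from phosphocholine inside matrix vesicles, SMPD3 is a neutral sphingomyelinase that produces phosphocholine, SLC20A1 and SLC20A2 are sodium-dependent phosphate transporters, SLC13A5 carries citrate, which is abundant in bone mineral, and IFITM5 (BRIL) is a membrane protein largely restricted to osteoblasts and mutated in a form of brittle bone disease.

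Cells were sorted by computation into 4 gates from the expression of marker genes, none of which was among the 9. The gates were late mesenchymal progenitor-like cells (LMP-like, 13080 cells), osteoblast-like cells (15256), osteocyte-like cells (Ocy-like, 4731) and marrow adipogenic lineage progenitor-like cells (MALP-like, 9080), out of 84506 cells kept. Each gate was filled in all 16 pools. A gate is a range on a score and not a discrete type: 28.1% of LMP-like, 42.4% of osteoblast-like, 51.0% of Ocy-like and 15.5% of MALP-like cells lay within the wider margin around a cut. The marker lists describe the gates and, as the gates were cut on them, are no independent support for their names. The osteocyte list (*Car12*, *Ptprz1*, *Bambi*, *Sost*, *Gal*, *Dmp1*) summed to 45.2 UMIs (unique molecular identifiers) per 10,000 in Ocy-like cells and to 15.3 in osteoblast-like cells, and the leukocyte list to 0.188 to 0.231 in the 4 gates. The osteoblast list summed to 282 in LMP-like cells (130 to 389 over pools), 1570 in osteoblast-like and 90.7 in MALP-like cells, and LMP-like cells had a median score of 1.71 on it against 1.78 on their own list, so levels in LMP-like cells are those of cells that also carry osteoblast transcripts. Leukocyte-like cells (12020, leukocyte score of at least 1.5) and T-cell-like cells (451, T-cell score of at least 1, with at least 20 cells in 4 pools) gave, for comparison, the level of each gene in cells of another lineage, which can hold free RNA and their own transcripts. Neither gate had an upper limit on stromal scores, so doublets with stromal cells could enter, and their part was not tested. The LMP list summed to 7.06 UMIs per 10,000 in T-cell-like cells (0.879 to 23.1 over pools) and to 1.54 in leukocyte-like cells. The MALP list summed to 11.6 and 10.0, respectively.

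Depth ranged from 53990642 UMIs in pool 7 to 100777353 in pool 1. Pool 13 stood apart, with a median of 2783 UMIs per kept cell against 10447 for the median pool, and with 54.9% of its cells in no gate. Pools 1 and 18 were also shallow over all kept cells (3755.5 and 5207 UMIs), but less so within the gates: LMP-like cells had medians of 12896 and 12973 UMIs and osteoblast-like cells 20452.5 and 17762.5, against 3662.5 and 3836 in pool 13. Both runs of a pool shared 84.5% (pool 13) to 99.8% of their barcodes. Median depth was similar in LMP-like, osteoblast-like and Ocy-like cells (18118, 18349 and 17460 UMIs) and lower in MALP-like cells (8708.5).

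On GRCm38, *Alpl* lies on chromosome 4 (137741733 to 137796384, minus strand), *Enpp1* on chromosome 10 (24637914 to 24712159, minus), *Ank* on chromosome 15 (27466677 to 27594909, plus), *Phospho1* on chromosome 11 (95824499 to 95832140, plus) and *Smpd3* on chromosome 8 (106252548 to 106337988, minus). *Slc20a1* lies on chromosome 2 (129198764 to 129211616, plus), *Slc20a2* on chromosome 8 (22476788 to 22569612, plus), *Slc13a5* on chromosome 11 (72241989 to 72267222, minus) and *Ifitm5* on chromosome 7 (140948958 to 140950291, minus). All 9 are protein coding. *Phospho1* overlaps *Zfp652* on the same strand, *Smpd3* overlaps *Gm26786* and *Ifitm5* overlaps *Gm45717*, and these partners are counted genes too, so reads in the shared stretches could be left uncounted or split and the levels of the 3 genes are uncertain to that extent. *Ank* and *Slc20a2* overlap counted genes on the opposite strand (*Otulin* and *Smim19*).

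Promoter sequences (windows of 300 bases that begin upstream of a transcript start and end just after it, RefSeq, GRCm38.p6) were at hand for 7 of the 9 genes, in 10 windows. Those of *Ifitm5* and *Slc13a5* are shown because these 2 genes had the most alike levels over pools and gates, and those of *Enpp1* and *Ank* because this pair varied together between pools, as described further on. Windows were searched on both strands for the GC box GGGCGG, which binds SP family factors, and for the RUNX core TGTGGT; overlapping matches were allowed. Matches stand in capitals. The windows are chr7:140950194-140950493 (*Ifitm5*), chr11:72267112-72267411 and chr11:72266555-72266854 (2 starts of *Slc13a5*), chr10:24712110-24712409 (*Enpp1*), all on the minus strand, and chr15:27466427-27466726 (*Ank*, plus strand).
Ifitm5: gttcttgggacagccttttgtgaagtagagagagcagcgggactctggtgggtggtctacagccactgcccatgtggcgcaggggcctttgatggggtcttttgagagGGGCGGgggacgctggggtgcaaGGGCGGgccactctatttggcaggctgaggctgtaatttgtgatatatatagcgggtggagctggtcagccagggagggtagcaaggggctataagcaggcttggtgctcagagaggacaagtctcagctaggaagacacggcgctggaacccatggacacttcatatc
Slc13a5, start 1: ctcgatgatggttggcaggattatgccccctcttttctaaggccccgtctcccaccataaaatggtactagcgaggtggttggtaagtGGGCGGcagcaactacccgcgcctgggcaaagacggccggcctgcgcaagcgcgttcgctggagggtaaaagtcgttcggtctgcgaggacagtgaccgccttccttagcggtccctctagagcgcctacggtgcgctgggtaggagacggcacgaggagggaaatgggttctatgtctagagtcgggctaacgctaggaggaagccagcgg
Slc13a5, start 2: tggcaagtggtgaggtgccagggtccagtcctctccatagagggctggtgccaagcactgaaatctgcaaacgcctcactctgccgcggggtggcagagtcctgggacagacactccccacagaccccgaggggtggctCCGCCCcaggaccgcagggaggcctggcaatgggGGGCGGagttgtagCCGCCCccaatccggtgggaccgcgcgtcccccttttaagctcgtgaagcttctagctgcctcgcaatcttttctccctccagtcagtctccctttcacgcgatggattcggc
Enpp1: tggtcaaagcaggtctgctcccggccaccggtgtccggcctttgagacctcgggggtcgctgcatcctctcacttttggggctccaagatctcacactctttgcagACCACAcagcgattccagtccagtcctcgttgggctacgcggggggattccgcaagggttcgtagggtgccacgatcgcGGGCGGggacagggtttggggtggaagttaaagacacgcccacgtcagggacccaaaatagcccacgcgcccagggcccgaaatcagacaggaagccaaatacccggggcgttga
Ank: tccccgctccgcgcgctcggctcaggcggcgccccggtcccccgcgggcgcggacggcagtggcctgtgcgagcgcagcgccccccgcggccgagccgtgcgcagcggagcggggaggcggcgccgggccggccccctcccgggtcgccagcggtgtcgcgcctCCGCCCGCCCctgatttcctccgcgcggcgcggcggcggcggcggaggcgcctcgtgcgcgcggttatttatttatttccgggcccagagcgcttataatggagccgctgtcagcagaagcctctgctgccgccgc
The GC box was present in 9 of the 10 windows of members and in 35.7% of all 32851 promoter windows. *Ifitm5* held 2 matches, the starts of *Slc13a5* 1 and 3, *Ank* 2 overlapping matches and *Enpp1* 1. The RUNX core was present in 2 of the 10 windows (1 each of *Enpp1* and *Slc20a1*) and in 16.8% of all windows. A match describes letters in the window and is not evidence of binding.

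The members fell into groups by where they were high. *Ifitm5*, *Slc13a5*, *Smpd3*, *Phospho1* and, by a smaller step, *Slc20a1* were higher in osteoblast-like than in LMP-like cells in all 16 pools, *Alpl* was high in LMP-like, osteoblast-like and Ocy-like cells and low in MALP-like cells, *Enpp1* overlapped in all gates, *Ank* had its highest mean of the 4 gates in LMP-like cells, and *Slc20a2* was high in LMP-like and MALP-like cells and low in osteoblast-like and Ocy-like cells. Levels are UMIs of a gene per 10,000 UMIs of the gate's cells in a pool, as the mean ± SD over pools. They are compared between gates and not between genes, since capture at the 3′ end differs from gene to gene.

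**Figure D1:**
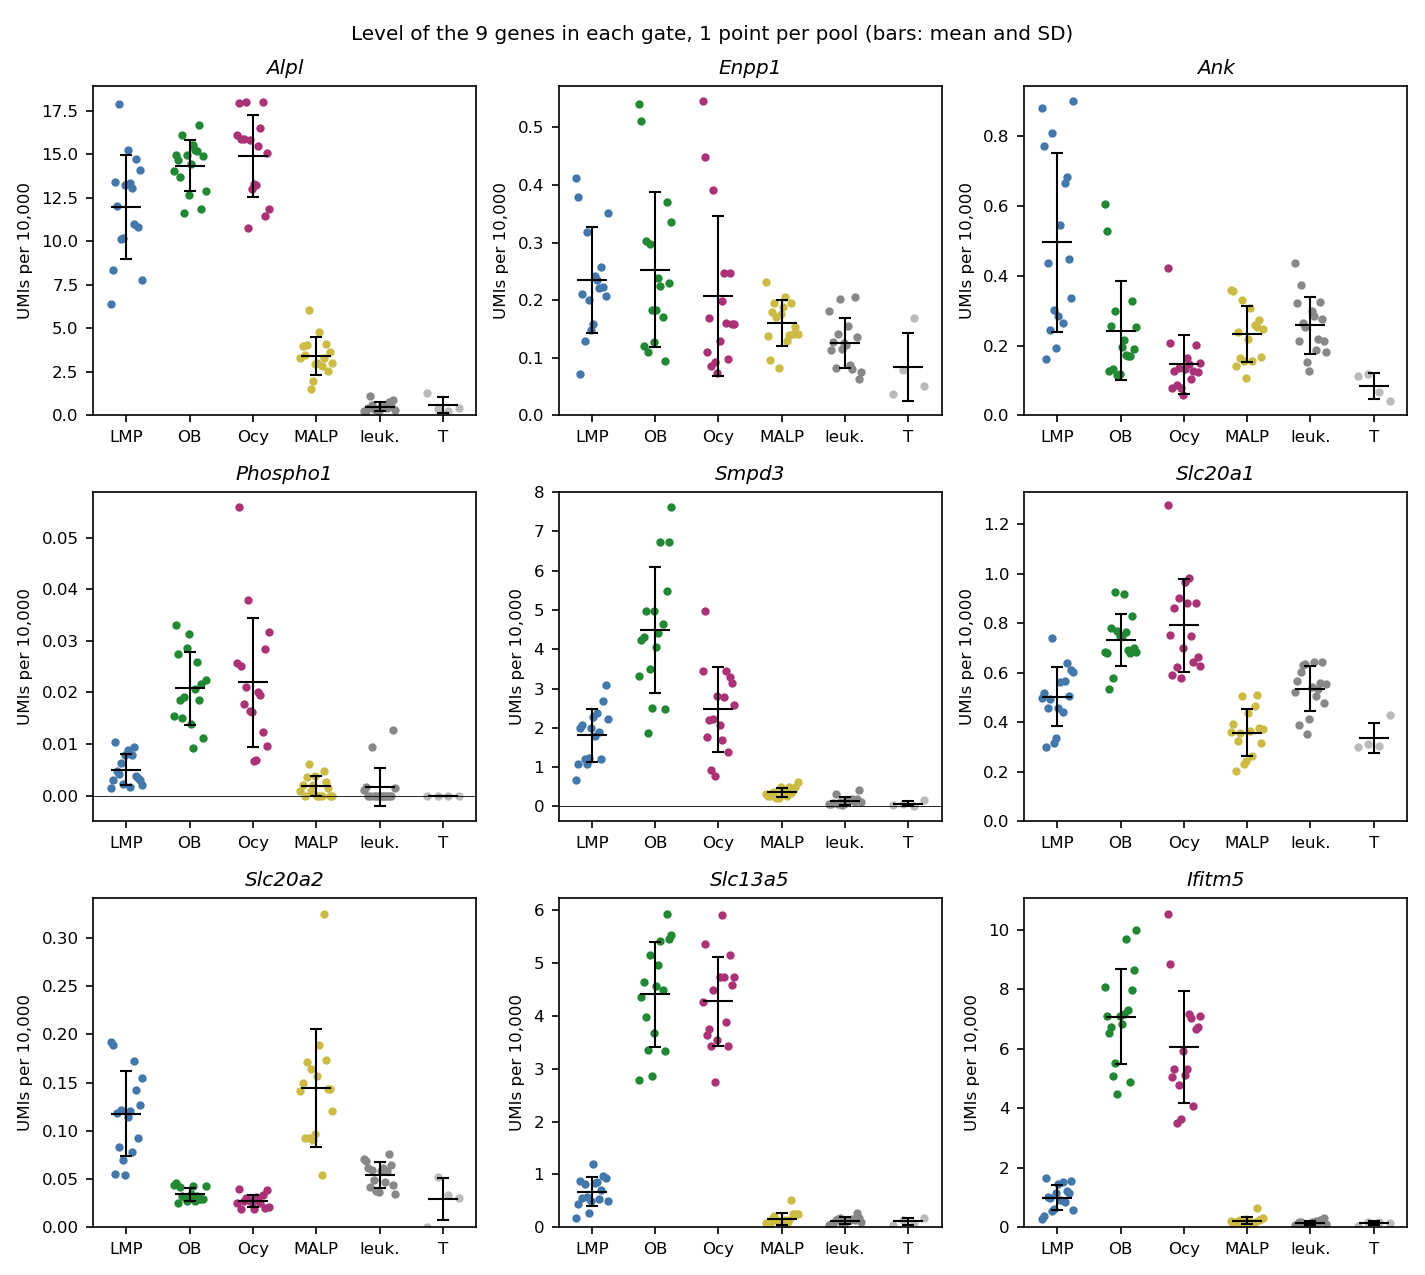
Level of each gene (y axis, UMIs per 10,000) in LMP-like, osteoblast-like (OB), Ocy-like, MALP-like, leukocyte-like (leuk.) and T-cell-like (T) cells, with 1 point per pool and the mean and SD over pools as bars; there are 16 pools, and 4 for T-cell-like cells. *Ifitm5* and *Slc13a5* separate osteoblast-like and Ocy-like cells from LMP-like and MALP-like cells without overlap.

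Gates were compared with edgeR's quasi-likelihood test on UMIs summed per pool and gate, with the pool as a block, and an adjusted p of at most 0.05 over all genes tested was taken as a call. Between osteoblast-like and LMP-like cells all 9 members were called, 7 higher and 2 lower in osteoblast-like cells, where 78.7% of 12679 genes were called (36.9% higher and 41.7% lower). Between Ocy-like and osteoblast-like cells 3 of 9 were called, all lower in Ocy-like cells, against 42.8% of all genes (18.1% higher and 24.6% lower). Between MALP-like and LMP-like cells 8 of 9 were called, all lower in MALP-like cells, against 73.5% (35.3% higher and 38.2% lower). For Ocy-like against LMP-like cells 6 were called higher and 2 lower, where 78.8% of all genes were called (36.9% higher and 41.9% lower). For MALP-like against osteoblast-like cells 1 was higher and 8 were lower, where 82.6% of all genes were called (43.7% higher and 38.9% lower), and for MALP-like against Ocy-like cells 1 was higher and 7 were lower (80.5%, with 43.2% higher and 37.3% lower). With backgrounds this high the counts themselves do not set the members apart, and the sizes below carry the description. These comparisons share gates and pools, and the gates were cut on genes of the same cells. When only cells of 400 to 6200 UMIs were kept, which left 8 pools with Ocy-like cells, the calls of *Enpp1* and *Ank* (osteoblast-like against LMP-like), of all 3 members called between Ocy-like and osteoblast-like cells, of *Enpp1* (MALP-like against LMP-like) and of *Ank* (Ocy-like against LMP-like and MALP-like against osteoblast-like) were lost. Not every member had a value under these limits, so a call that is not listed here need not have held.

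Fold changes are after TMM scaling, so they differ from the ratio of the levels. *Ibsp*, *Col1a1*, *Col1a2* and *Sparc*, the most abundant matrix transcripts, together took 3.29% of UMIs in LMP-like, 17.0% in osteoblast-like, 21.8% in Ocy-like and 1.03% in MALP-like cells. With library size as the only scaling the median log2 fold change of all genes moved from -0.03 to -0.39 for osteoblast-like against LMP-like cells and from -0.02 to 0.29 for MALP-like against LMP-like cells. The share of called genes that were higher went from 46.9% to 22.6% and from 48.0% to 74.0%, respectively. For Ocy-like against LMP-like, MALP-like against osteoblast-like and MALP-like against Ocy-like cells that share went from 46.8% to 24.6%, from 53.0% to 81.2% and from 53.6% to 81.6%. Between MALP-like and Ocy-like cells *Enpp1* then lost its call (-0.21, edgeR adjusted p = 0.210). *Ank*, not called there with TMM, became called higher in MALP-like cells (0.71, edgeR adjusted p = 1.6e-06).

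**Figure D2:**
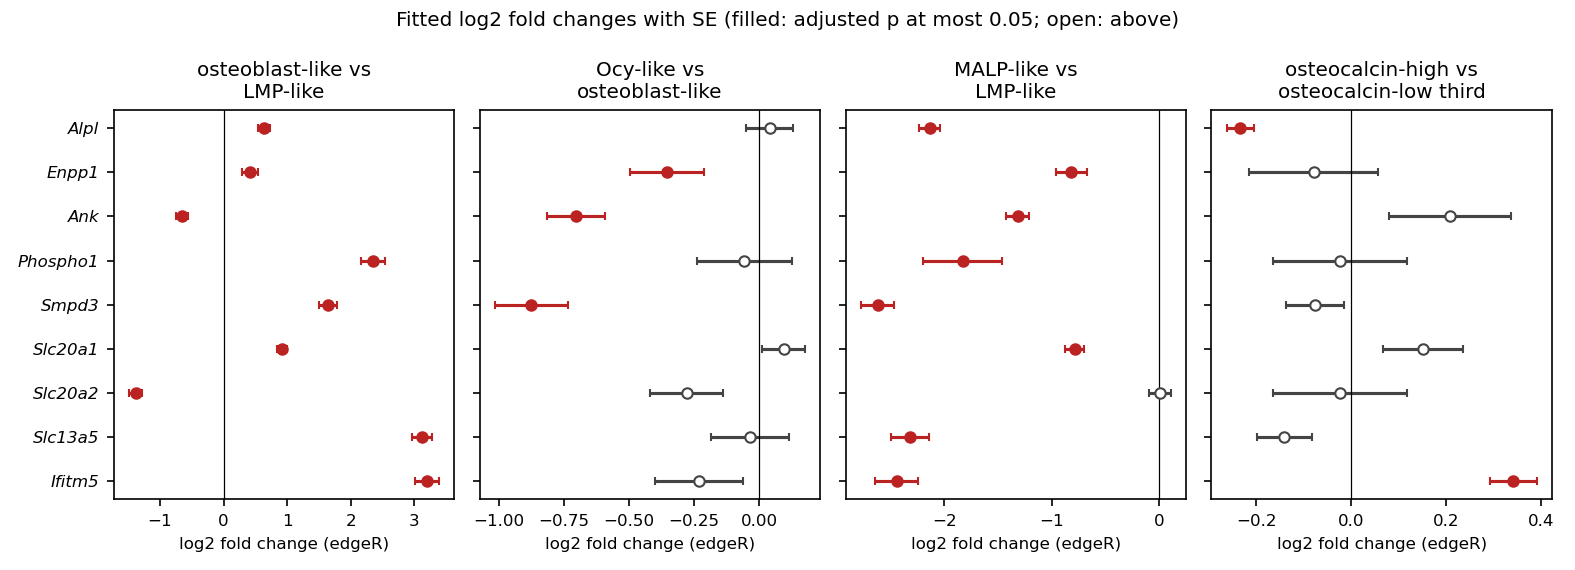
Fitted log2 fold changes (x axis, edgeR) of the 9 genes with their SE in 4 comparisons; filled points have an adjusted p of at most 0.05 and open points do not. The changes between osteoblast-like and LMP-like cells reach 3.20 (*Ifitm5*), while those between the osteocalcin-high and osteocalcin-low tertiles of osteoblast-like cells stay between -0.23 and 0.34.

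*Alpl*, the enzyme that removes pyrophosphate, was at 12.0 ± 3.00 UMIs per 10,000 in LMP-like cells (SD, n = 16 pools; lowest 6.41, median 12.6, highest 17.9). It was at 14.3 ± 1.46 in osteoblast-like (11.6, 14.8, 16.7) and at 14.9 ± 2.35 in Ocy-like cells (10.8, 15.7, 18.0). In MALP-like cells it was at 3.41 ± 1.08 (1.54, 3.29, 6.06). MALP-like pools lay below every pool of the other 3 gates, whereas LMP-like and osteoblast-like pools overlapped. *Alpl* was higher in osteoblast-like than in LMP-like cells in 13 of 16 pools, with a log2 fold change of 0.63 ± 0.09 (SE; edgeR adjusted p = 2.0e-08). It fell by 2.14 ± 0.10 on the log2 scale from LMP-like to MALP-like cells (edgeR adjusted p = 3.0e-26; lower in 16 of 16 pools). Between Ocy-like and osteoblast-like cells the difference was 0.04 with an approximate 95% interval of -0.14 to 0.22 (edgeR adjusted p = 0.760).

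LMP-like cells of pools 1, 18 and 2 had the lowest *Alpl* (6.41, 7.80 and 8.37), although their osteoblast-like cells were within the range of the others (14.0, 12.9 and 14.9). Cells between the LMP-like and osteoblast-like gates, 4902 cells set apart after the scores had been seen, held 16.5 ± 2.62 UMIs of *Alpl* per 10,000. This was above LMP-like cells in 16 and above osteoblast-like cells in 14 of 16 pools, which was not tested. The median depth of these in-between cells was 13828.5 UMIs, but 1562 in pool 1, 2049 in pool 13 and 4760.5 in pool 18. Pool 7 had 37 of them. Shallow cells can miss markers, so the place of these cells between the gates was not tested.

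*Enpp1*, the source of extracellular pyrophosphate, was counted in few cells, with a UMI in 5.06% to 5.53% of the cells of each gate after thinning to 3000 UMIs per cell. It was at 0.235 ± 0.092 UMIs per 10,000 in LMP-like cells (lowest 0.0717, median 0.222, highest 0.413), at 0.253 ± 0.135 in osteoblast-like (0.0945, 0.227, 0.541), at 0.207 ± 0.139 in Ocy-like (0.0730, 0.159, 0.546) and at 0.160 ± 0.040 in MALP-like cells (0.0826, 0.162, 0.231). All 4 ranges overlapped, and pool 1 was the highest in each gate. The log2 fold change between osteoblast-like and LMP-like cells was 0.42 ± 0.13 (edgeR adjusted p = 0.0033), but the level was higher in 7 pools only and the change was 0.06 (adjusted p = 0.697) with library size as the only scaling. *Enpp1* was lower in Ocy-like than in osteoblast-like cells in 12 of 16 pools (log2 fold change -0.35 ± 0.14, edgeR adjusted p = 0.041), a call that was lost with library size only, without the pool block, with a wider gate margin and with DESeq2 (adjusted p of 0.050 to 0.164). It fell by 0.82 ± 0.15 on the log2 scale from LMP-like to MALP-like cells (edgeR adjusted p = 2.8e-06; lower in 12 of 16 pools). Cells between the LMP-like and osteoblast-like gates held 0.441 ± 0.324, above osteoblast-like cells in 15 of 16 pools. Leukocyte-like cells held 0.126 ± 0.044 of *Enpp1* (lowest 0.0631, highest 0.205). MALP-like cells were above leukocyte-like cells in 12 of 16 pools, with overlapping ranges.

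*Ank*, a transporter linked to pyrophosphate release, was 1 of the 2 members called lower in osteoblast-like than in LMP-like cells. It was at 0.496 ± 0.256 UMIs per 10,000 in LMP-like cells (lowest 0.161, median 0.442, highest 0.901) and at 0.243 ± 0.142 in osteoblast-like cells (0.117, 0.193, 0.606). It was at 0.147 ± 0.085 in Ocy-like cells (0.0588, 0.130, 0.422) and at 0.234 ± 0.080 in MALP-like cells (0.108, 0.244, 0.360). Ranges overlapped, but within a pool *Ank* was lower in osteoblast-like than in LMP-like cells, and lower in Ocy-like than in osteoblast-like cells, in 16 of 16 pools. The log2 fold changes were -0.66 ± 0.09 (edgeR adjusted p = 1.6e-08) and -0.70 ± 0.11 (edgeR adjusted p = 8.2e-07). MALP-like cells were below LMP-like cells in every pool (-1.32 ± 0.10, edgeR adjusted p = 1.5e-16) and below osteoblast-like cells in 8 of 16 pools, where the call (-0.66, edgeR adjusted p = 1.2e-07) went to 0.00 (adjusted p = 0.999) with library size only. Cells between the LMP-like and osteoblast-like gates held 0.624 ± 0.589, above osteoblast-like cells in 16 of 16 pools and above LMP-like cells in 7. Leukocyte-like cells held 0.258 ± 0.082 of *Ank*, a mean above those of osteoblast-like, Ocy-like and MALP-like cells. MALP-like cells were below leukocyte-like cells in 10 of 16 pools, and LMP-like cells were above them in 13.

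Taking *Alpl* and *Enpp1* as opposing enzymes, the ratio of their UMIs was followed from gate to gate as a description, without a test. The median ratio was 55.4 in LMP-like (15.5 to 187), 66.7 in osteoblast-like (25.9 to 177), 94.7 in Ocy-like (27.5 to 211) and 22.3 in MALP-like cells (8.96 to 36.4). The mean log2 ratio was 5.74 ± 0.95, 6.01 ± 0.84, 6.41 ± 0.94 and 4.39 ± 0.48 (SD, n = 16). Within a pool it was higher in Ocy-like than in osteoblast-like cells in 14 of 16 pools, by 0.40 ± 0.44 on the log2 scale, and lower in MALP-like than in osteoblast-like cells in all 16, by 1.62 ± 0.77. Osteoblast-like cells were above LMP-like cells in 11 of 16 pools (0.27 ± 0.59), a difference smaller than its spread. In cells between these gates the mean log2 ratio was 5.49 ± 1.10, below osteoblast-like cells in 14 and below LMP-like cells in 11 of 16 pools. The mean thus did not lie between those of the LMP-like and osteoblast-like gates. These in-between cells were shallow in some pools, with as few as 18 UMIs of *Enpp1* in a pool. Pools differed by more than the LMP-like, osteoblast-like and Ocy-like gates did: in Ocy-like cells the ratio was 27.5 in pool 6 and 211 in pool 5, with as few as 34 UMIs of *Enpp1* in a pool. The ratio compares gates; it does not give the relative amounts of both transcripts.

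**Figure D3:**
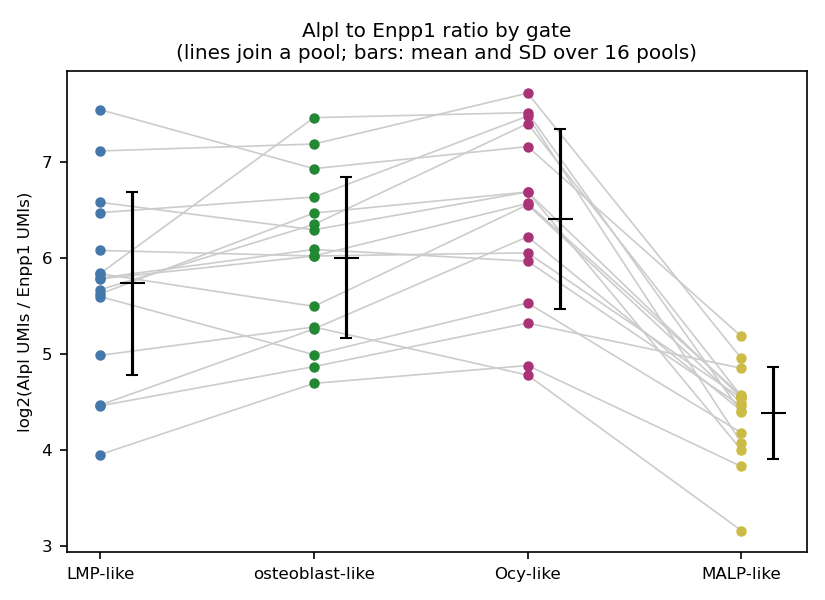
The log2 ratio of *Alpl* to *Enpp1* UMIs (y axis) in the 4 gates, 1 point per pool, with grey lines joining the gates of a pool and bars for the mean and SD over 16 pools. The ratio falls to a mean of 4.39 in MALP-like cells from 6.41 in Ocy-like cells and is lower in MALP-like than in osteoblast-like cells in each of the 16 pools.

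*Smpd3*, the sphingomyelinase, rose from 1.81 ± 0.667 UMIs per 10,000 in LMP-like cells (lowest 0.668, median 1.94, highest 3.09) to 4.49 ± 1.61 in osteoblast-like cells (1.87, 4.36, 7.62). It was at 2.47 ± 1.08 in Ocy-like cells (0.781, 2.39, 4.98) and at 0.359 ± 0.117 in MALP-like cells (0.205, 0.343, 0.628). Only the MALP-like pools stood clear of the others. The log2 fold change between osteoblast-like and LMP-like cells was 1.64 ± 0.14 (edgeR adjusted p = 2.2e-15; higher in 16 of 16 pools). From osteoblast-like to Ocy-like cells *Smpd3* fell by 0.88 ± 0.14 on the log2 scale (edgeR adjusted p = 9.5e-07), lower in 14 of 16 pools, with pools 1 and 2 the other way. From LMP-like to MALP-like cells it fell by 2.62 ± 0.15 (edgeR adjusted p = 1.8e-21). Cells between the LMP-like and osteoblast-like gates held 5.20 ± 1.97, above osteoblast-like cells in 11 of 16 pools.

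*Phospho1*, the phosphatase of matrix vesicles, was counted in few cells. It gave 590 UMIs in all osteoblast-like cells, 168 in Ocy-like, 119 in LMP-like and 14 in MALP-like cells, in which 6 of 16 pools had none. The levels were 0.0208 ± 0.0071 UMIs per 10,000 in osteoblast-like cells (lowest 0.00921, median 0.0199, highest 0.0332), 0.0220 ± 0.0125 in Ocy-like, 0.0050 ± 0.0030 in LMP-like and 0.0018 ± 0.0019 in MALP-like cells. The osteoblast-like and LMP-like ranges overlapped. *Phospho1* was higher in osteoblast-like than in LMP-like cells in every pool (log2 fold change 2.35 ± 0.18, edgeR adjusted p = 1.2e-16). It did not pass between Ocy-like and osteoblast-like cells (-0.06, interval -0.42 to 0.30, edgeR adjusted p = 0.842). In T-cell-like cells it had no UMI, which allows up to 0.0115 UMIs per 10,000 over 2600793 UMIs, counting error only, so a level as low as that of LMP-like or MALP-like cells could not be told from 0 there. Leukocyte-like cells held 0.0016 ± 0.0038 (9 UMIs, none in 11 of 16 pools), near the MALP-like level. LMP-like cells were above leukocyte-like cells in 14 of 16 pools.

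The phosphate transporters went opposite ways. *Slc20a1* was at 0.503 ± 0.120 UMIs per 10,000 in LMP-like (lowest 0.301, median 0.503, highest 0.740), 0.733 ± 0.105 in osteoblast-like (0.534, 0.725, 0.928), 0.792 ± 0.187 in Ocy-like (0.580, 0.751, 1.28) and 0.359 ± 0.094 in MALP-like cells (0.205, 0.362, 0.512). *Slc20a2* was at 0.118 ± 0.044 in LMP-like (0.0538, 0.120, 0.192), 0.0341 ± 0.0068 in osteoblast-like (0.0256, 0.0317, 0.0459), 0.0277 ± 0.0063 in Ocy-like (0.0186, 0.0274, 0.0400) and 0.144 ± 0.061 in MALP-like cells (0.0542, 0.143, 0.325). For *Slc20a2* the lowest LMP-like or MALP-like pool lay above the highest osteoblast-like pool. Leukocyte-like cells held 0.536 ± 0.091 of *Slc20a1*, a mean above those of MALP-like and LMP-like cells. LMP-like cells were below them in 11 of 16 pools, with overlapping ranges. Of *Slc20a2* leukocyte-like cells held 0.0544 ± 0.0131, more than osteoblast-like or Ocy-like cells. *Slc20a1* rose by 0.92 ± 0.08 on the log2 scale from LMP-like to osteoblast-like cells (edgeR adjusted p = 4.5e-15; 16 of 16 pools), while *Slc20a2* fell by 1.38 ± 0.10 (edgeR adjusted p = 1.5e-17; 16 of 16 pools). From LMP-like to MALP-like cells *Slc20a1* fell by 0.79 ± 0.09 (edgeR adjusted p = 1.1e-11). *Slc20a2* did not pass there (log2 fold change 0.01, interval -0.19 to 0.20, edgeR adjusted p = 0.956), but was called higher with library size only (0.32, adjusted p = 0.0063) and had the higher level in MALP-like cells in 12 of 16 pools. Neither transporter was called between Ocy-like and osteoblast-like cells (0.09 for *Slc20a1* and -0.28 for *Slc20a2*, edgeR adjusted p = 0.370 and 0.106).

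*Ifitm5* and the citrate carrier *Slc13a5* had the steepest rise with the osteoblast-like state. *Ifitm5* was at 1.00 ± 0.432 UMIs per 10,000 in LMP-like (lowest 0.284, median 1.01, highest 1.67), 7.07 ± 1.59 in osteoblast-like (4.49, 7.10, 10.0), 6.05 ± 1.88 in Ocy-like (3.49, 5.63, 10.54) and 0.230 ± 0.128 in MALP-like cells (0.123, 0.199, 0.658). *Slc13a5* was at 0.672 ± 0.275 (0.171, 0.635, 1.204), 4.40 ± 0.988 (2.78, 4.52, 5.93), 4.27 ± 0.835 (2.75, 4.38, 5.91) and 0.166 ± 0.113 (0.050, 0.135, 0.509) in the same order. For both genes osteoblast-like and Ocy-like pools lay above every LMP-like and MALP-like pool. From LMP-like to osteoblast-like cells the log2 fold changes were 3.20 ± 0.19 for *Ifitm5* (edgeR adjusted p = 1.0e-21) and 3.12 ± 0.16 for *Slc13a5* (edgeR adjusted p = 1.4e-23), or 9.19-fold and 8.71-fold. Between Ocy-like and osteoblast-like cells neither was called: *Ifitm5* differed by -0.23 (interval -0.57 to 0.10, lower in 14 of 16 pools, edgeR adjusted p = 0.282) and *Slc13a5* by -0.04 (interval -0.33 to 0.26, adjusted p = 0.885). With cells near a cut left out *Ifitm5* (-0.43, edgeR adjusted p = 0.034) and *Slc20a2* (-0.51, adjusted p = 0.027) were called lower in Ocy-like cells. Cells between the LMP-like and osteoblast-like gates were intermediate for both, at 5.42 ± 1.79 for *Ifitm5* and 3.26 ± 1.32 for *Slc13a5*.

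*Ifitm5* and *Slc13a5* in MALP-like cells were called lower than in LMP-like cells (-2.44 ± 0.20 and -2.32 ± 0.18, edgeR adjusted p = 4.5e-16 and 1.0e-16), and both were low there, with means within the range of leukocyte-like pools. With doublets kept the means rose to 0.453 and 0.322 UMIs per 10,000 and with cells of 400 to 6200 UMIs alone to 0.657 and 0.530. Leukocyte-like cells were not recomputed under these settings, so no comparison with them is made there. The levels were 0.155 ± 0.067 and 0.128 ± 0.061 UMIs per 10,000 in leukocyte-like cells. After every cell had been thinned to 3000 UMIs, 5.03% ± 3.45 of MALP-like cells (SD over 16 pools) held a UMI of *Ifitm5*, against 6.74% ± 2.02 of T-cell-like cells (4 pools), 14.2% ± 6.27 of LMP-like, 76.6% ± 6.76 of osteoblast-like and 71.4% ± 10.7 of Ocy-like cells. For *Slc13a5* the shares were 3.61% ± 2.68 of MALP-like, 4.51% ± 0.763 of T-cell-like, 12.3% ± 4.88 of LMP-like, 59.7% ± 8.44 of osteoblast-like and 61.7% ± 8.18 of Ocy-like cells. The MALP-like shares were thus below those of T-cell-like cells at this depth, but the order turned after thinning to 2000 UMIs, with 4.58% ± 4.21 of MALP-like against 2.76% ± 2.00 of T-cell-like cells for *Ifitm5* and 3.24% ± 3.27 against 1.81% ± 2.53 for *Slc13a5*. The MALP-like level was above the leukocyte-like level in 13 of 16 pools for *Ifitm5* and in 10 of 16 for *Slc13a5*, and above the T-cell-like level in 3 of 4 pools for both, with overlapping ranges. No order between MALP-like cells and these other cells is read from values that change sides, and the part of free RNA was not tested. Unthinned, at a median of 8708.5 UMIs in MALP-like and 4339 in T-cell-like cells, the *Ifitm5* shares were 12.7% and 8.34%. Pool 13 had the highest MALP-like level of both genes (0.658 and 0.509).

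*Alpl* UMIs were found in 43.9% ± 8.78 of thinned MALP-like cells, against 8.28% ± 1.63 of T-cell-like, 83.1% ± 7.29 of LMP-like, 96.0% ± 1.27 of osteoblast-like and 94.8% ± 3.02 of Ocy-like cells. *Smpd3* UMIs were in 8.38% ± 2.37 of MALP-like, 1.43% ± 1.73 of T-cell-like, 31.3% ± 8.53 of LMP-like and 59.5% ± 12.0 of osteoblast-like cells. *Alpl* and *Smpd3* had higher shares in MALP-like than in T-cell-like cells, also after thinning to 2000 UMIs. For *Slc20a1* the order turned, with 9.70% ± 2.72 of MALP-like against 7.90% ± 5.48 of T-cell-like cells at 3000 UMIs and 6.87% ± 1.61 against 7.02% ± 3.16 at 2000 UMIs. *Phospho1* was found in 0.693% ± 0.287 of osteoblast-like and 0.0107% ± 0.0427 of MALP-like cells at 3000 UMIs. For *Enpp1*, *Ank*, *Slc20a1* and *Slc20a2* the thinned shares in the 4 gates were all at most 17.7%, with 14.6% ± 2.73 of leukocyte-like cells holding *Slc20a1* and 6.84% ± 2.08 holding *Ank*; whether leukocytes express these genes themselves was not tested. The thinning left out 1702 LMP-like, 1711 osteoblast-like, 206 Ocy-like, 1537 MALP-like, 2879 leukocyte-like and 114 T-cell-like cells with fewer than 3000 UMIs.

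**Figure D4:**
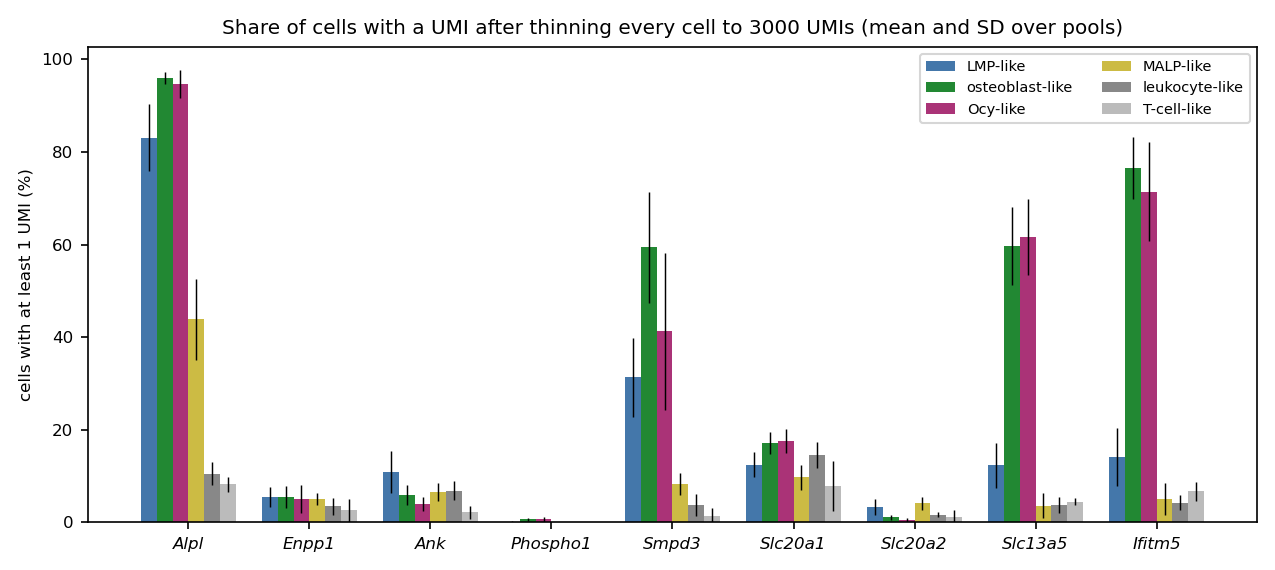
Share of cells with at least 1 UMI of each gene (y axis, %) after thinning every cell to 3000 UMIs, as the mean and SD over pools in each gate; T-cell-like cells (4 pools) and leukocyte-like cells serve as comparison. *Ifitm5* and *Slc13a5* in MALP-like cells (5.03% and 3.61%) overlap with T-cell-like cells (6.74% and 4.51%), an order that turns at 2000 UMIs, whereas *Alpl* in MALP-like cells (43.9%) is above T-cell-like cells (8.28%).

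Within the osteoblast-like gate, the cells of each pool were ranked by the share of their UMIs in the osteocalcin genes *Bglap* and *Bglap2*, products of mature osteoblasts, and the highest and lowest tertiles were compared. Both genes were also among the 9 markers of the osteoblast score that set this gate. A cell low in them therefore needed higher values of the other markers to enter it. The part of this selection in the differences between tertiles was not tested. Of the 9 members, 2 were called, against 32.1% of 10818 genes (16.4% higher and 15.7% lower). *Alpl* was at 16.1 ± 1.35 UMIs per 10,000 in the osteocalcin-low tertile (lowest 13.7, median 16.4, highest 18.0), 14.6 ± 1.65 in the middle and 12.5 ± 1.62 in the osteocalcin-high tertile (9.90, 12.9, 15.5), and was lower in the high tertile in 16 of 16 pools. Its log2 fold change was -0.23 ± 0.03 (edgeR adjusted p = 1.9e-06). *Ifitm5* went the other way, from 6.665 ± 1.78 to 7.55 ± 1.66, higher in 13 of 16 pools, with a log2 fold change of 0.34 ± 0.05 (edgeR adjusted p = 1.5e-05), a call lost without the pool block (adjusted p = 0.079). *Slc13a5*, so alike to *Ifitm5* across gates, was at 4.97 ± 1.35 in the low and 4.01 ± 0.802 in the high tertile and lower in 13 of 16 pools, but was not called (-0.14, edgeR adjusted p = 0.072); it was called lower with a wider gate margin (-0.21, adjusted p = 0.0055), with no filter on low counts and with library size only. *Slc20a1* was not called (0.15, edgeR adjusted p = 0.183); it was called higher without pool 13 (0.21, adjusted p = 0.037) and with no filter on low counts, and lower with cells of 400 to 6200 UMIs alone (-0.55, adjusted p = 0.040). The remaining members had log2 fold changes of -0.08 to 0.21 (edgeR adjusted p of 0.228 to 0.962), of which *Ank* was called with no filter on low counts (0.21, adjusted p = 0.016) and *Smpd3* with library size only (-0.22, adjusted p = 0.0072). In this comparison library size only moved the share of called genes that were higher from 51.2% to 10.4%.

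Between pools, some members rose and fell together within a gate, and in LMP-like cells *Alpl* went opposite to *Enpp1* and *Ank*. In osteoblast-like cells *Enpp1* and *Ank* were both highest in pools 1 (0.541 and 0.606 UMIs per 10,000) and 2 (0.510 and 0.528), and both were at 0.110 to 0.134 in pools 3, 5 and 8. The lowest pool was not shared: *Enpp1* was lowest in pool 13 (0.0945, with *Ank* at 0.170) and *Ank* in pool 7 (0.117, with *Enpp1* at 0.183). Over the 16 pools their log2 levels had Pearson's r = 0.92 and Spearman's rho = 0.91, and r = 0.85 without the 2 pools farthest from the median of *Enpp1*. Among 12678 other genes *Ank* ranked 5 by its correlation with *Enpp1*, whose median correlation with all genes was 0.20, while *Enpp1* ranked 114 by its correlation with *Ank*. In LMP-like cells r was 0.90, in Ocy-like cells 0.85 (where *Ank* ranked 150 for *Enpp1*) and in MALP-like cells 0.41 (rank 2224), with r = 0.17 without the 2 farthest pools. *Smpd3* and *Ifitm5* formed another such pair, with r = 0.89 and rho = 0.79 in osteoblast-like cells (*Ifitm5* ranked 2 among 12678 genes), 0.91 in Ocy-like, 0.76 in LMP-like and 0.54 in MALP-like cells. *Slc13a5* and *Ifitm5*, the most alike pair across gates, had r = 0.61 over pools within osteoblast-like, 0.58 within Ocy-like, 0.83 within LMP-like and 0.86 within MALP-like cells. Other pairs were as close in LMP-like cells, with r = 0.88 for *Ank* and *Slc20a2* and 0.84 for *Alpl* and *Ifitm5*. There *Alpl* had r = -0.76 with *Enpp1* and -0.69 with *Ank*. With *Enpp1* it had r = -0.43 in osteoblast-like, -0.14 in Ocy-like and 0.41 in MALP-like cells. These are descriptions with no test, since the gates of a pool share mice, cultures and a library, and the pairs were picked after the correlations of all pairs had been seen.

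**Figure D5:**
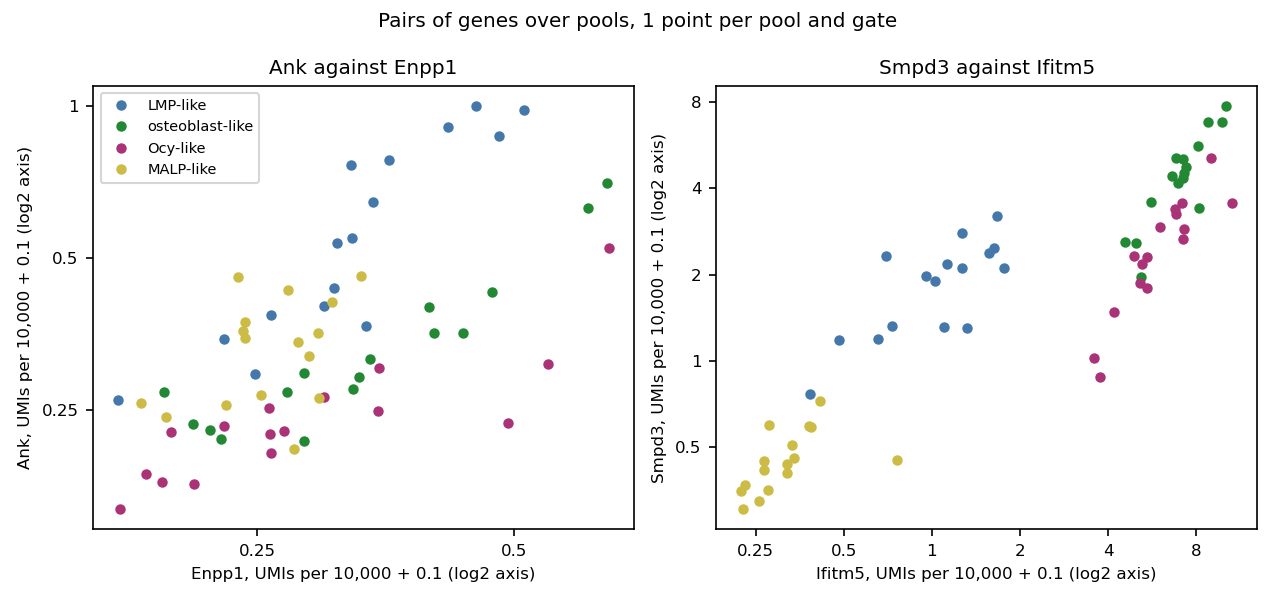
*Ank* against *Enpp1* (left) and *Smpd3* against *Ifitm5* (right), both axes as UMIs per 10,000 plus 0.1 on a log2 scale, 1 point per pool and gate. Within LMP-like, osteoblast-like and Ocy-like cells the points of the first pair rise together (r of 0.90, 0.92 and 0.85), at a different height in each gate.

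Pools 1 and 2, the highest for *Enpp1* and *Ank*, also had the lowest shares of Ocy-like cells. Ocy-like cells made up 11.7%, 8.62% and 13.3% of the osteoblast-like and Ocy-like cells of pools 1, 2 and 6, and 17.9% to 36.9% in the other pools. Over 16 pools the osteoblast-like level of *Enpp1* had r = -0.65 and rho = -0.52 with that share, and *Ank* had r = -0.72 and rho = -0.59. Without the 2 pools farthest from the median share (pools 2 and 3) r was -0.47 for *Enpp1* and -0.59 for *Ank*. Pool 1, the highest for both genes, was still included there. The relation of both levels with the median depth of osteoblast-like cells was weak (r = 0.13 and -0.09), as was that with the share of UMIs in *Ibsp* (r = 0.09 and 0.01). Each pool is 1 set of mice and 1 library, so differences between mice and between libraries cannot be told apart.

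Other genes of phosphate, pyrophosphate, phospholipid and citrate handling were taken from a list of 52, of which 51 were in the files and 41 could be tested between gates. From LMP-like to osteoblast-like cells 22 were higher, 15 lower and 4 not called, where 36.9% of all genes were called higher and 41.7% lower; with library size only 18 were higher and 20 lower. The list on phosphate transport and its regulation leaned most to one side, with 9 of 10 tested genes higher in osteoblast-like cells and a median log2 fold change of 1.14, against -0.03 for all genes. With library size only 8 of the 10 were higher. This lean is a description only. The lists were drawn up with earlier results of these data known and hold genes of osteoblasts and osteocytes, and the gate was cut on osteoblast markers. *Mepe* and *Phex*, a matrix protein and a peptidase of osteocytes that act on phosphate handling, had log2 fold changes of 5.32 and 5.04, the phosphate exporter *Xpr1* 0.84, and *Fam20c*, the kinase of secreted phosphoproteins, 1.24. *Fam20a*, a pseudokinase partner of FAM20C, fell by 3.23. Of 7 genes on pyrophosphate and nucleotides 3 were higher and 3 lower in osteoblast-like cells (3 and 4 with library size only), and of 13 on phosphocholine, sphingolipids and vesicles 5 were higher and 5 lower (3 and 8). Of 5 genes on citrate 3 were higher and 2 lower, a lean that turned to 2 and 3 with library size only. Of 2 calcification inhibitors 1 was higher and 1 lower, and of 4 Ifitm genes 1 was higher and 3 lower, under both scalings. *Sgms2*, a sphingomyelin synthase of bone cells, rose by 3.27, and *Enpp6*, a phosphodiesterase that yields phosphocholine, by 3.12, whereas *Mgp*, which encodes a calcification inhibitor, fell by 3.50 and *Enpp2*, which encodes autotaxin, fell by 2.66. *Ifitm3* fell by 1.49 on this log2 scale, opposite to *Ifitm5*.

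From osteoblast-like to Ocy-like cells 9 of the 41 listed genes were higher, 13 lower and 19 not called, where 18.1% of all genes were called higher and 24.6% lower. *Phex* rose by 1.598 on the log2 scale, from 2.02 ± 0.876 to 5.89 ± 1.35 UMIs per 10,000 and in 16 of 16 pools (edgeR adjusted p = 1.3e-16), *Xpr1* by 0.95, *Mepe* by 0.89 and *Nt5e*, an ectonucleotidase, by 0.95. *Spp1*, which encodes osteopontin, fell by 0.89 and *Vdr*, the vitamin D receptor, by 0.70. From LMP-like to MALP-like cells 12 were higher, 16 lower and 13 not called (35.3% of all genes were called higher and 38.2% lower), and with library size only 21 were higher and 13 lower. *Stc1*, a glycoprotein hormone linked to phosphate, rose by 3.20 there (0.0731 ± 0.0231 to 0.791 ± 0.238), and its relative *Stc2* fell by 2.52. Between osteocalcin-low and osteocalcin-high tertiles 11 of 39 were higher and 6 lower (16.4% and 15.7% of all genes), or 6 and 19 with library size only.

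The genes most like a member were found by Pearson's r over the 64 sums per pool and gate on the log2 scale, as a description; the 64 points share pools and fall into 4 gates. *Alpl* was most like *Pth1r*, the parathyroid hormone receptor (r = 0.98), then 2310022B05Rik and *Als2cl* (0.95 and 0.94). *Slc13a5* and *Ifitm5* were each other's closest gene (r = 0.99), each followed by *Cgref1* and *Itga10* (0.97 to 0.98). *Smpd3* was followed by *Cemip*, *Kdelr2* and *Insc* (0.93 to 0.94), *Slc20a1* by *Fam20c*, *Sec31a* and *Smad3* (0.89), and *Slc20a2* by *Foxp4*, *Amot* and *Rftn1* (0.92 to 0.93). *Ank* was closest to *Nop56*, *Ddx39* and *Dkc1*, genes of ribosome and RNA processing (0.87 to 0.90). *Phospho1* (*Ier3*, *Chst13*, *Slc12a8*, 0.85 to 0.87) and *Enpp1* (*Gps1*, *Adamts2*, *Myo19*, 0.71 to 0.74) had neighbours with lower r.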

How the data were processed

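The authors aligned and counted reads of the 10x Genomics 3′ v2 libraries with Cell Ranger 5.0.0 against GRCm38 (mm10). They deposited raw UMI counts per gene and barcode, before the paper's own limits on cells, doublet removal and assignment to mice. The matrices of run HGYVNCCX2 held 3460 to 9429 barcodes per pool, so they are not counts of every droplet. The annotation release is not given in the sources used here; coordinates are from GENCODE for GRCm38, matched by gene identifier.

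The members and all lists were chosen with earlier results of these data known. From run HGYVNCCX2, 89539 of 107853 barcodes were kept. They had 400 to 6200 genes (and no fewer than 200 features), no more than 10% of UMIs from mitochondrial transcripts, 20% from *Rpl* genes and 15% from *Rps* genes. The paper words its limits of 400 and 6200 as reads. Here they were applied to detected genes, and to UMI counts as an alternative. Scrublet scores (scanpy 1.11.5) were used to remove 5033 droplets, in proportion to the barcodes of each pool. A marker score was the mean of log(1 + UMIs per 10,000) over a list. LMP-like and MALP-like cells scored at least 1 and led the other by 0.3, osteoblast-like cells at least 2.8 and Ocy-like cells also at least 1.4 on the osteocyte list; stromal gates allowed a leukocyte score of up to 0.3. The cuts were set after marker scores, but not members, had been seen. LMP, MALP, osteoblast, osteocyte and leukocyte markers are those of the study or common knowledge.

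UMIs were summed per pool and gate (at least 20 cells) and compared by the quasi-likelihood test of edgeR 4.0.16 (under R 4.3.3) after filterByExpr and TMM scaling, with the pool as a block and the 4 gates in a single fit, which share an estimate of the spread. The p-values were adjusted by Benjamini-Hochberg. They set the difference between gates within a pool against how much such differences vary from pool to pool. SEs are the log2 fold change over the root of F, and the 95% intervals are normal intervals from them. The gates of a pool hold different cells of the same mice, cultures and library, which is where the pairing comes from; the lowest same-pool correlation of deviations was 0.094 and the medians were 0.225 to 0.490. Simulated data had 200 genes changed by a log2 of 1 and all other genes at the same mean in every gate. Their dispersion was fixed and they held no pool effect. On these the test recovered 100% for osteoblast-like against LMP-like cells (12679 genes, 2.91% false calls) and 100% for the osteocalcin tertiles (10818 genes, 7.83% false). In the real data most genes differed between gates and pools varied, so these rates do not carry over to them. Named genes are the 9 members, a fixed list of 52 pathway genes and the 3 genes most like each member. Correlations used log2(UMIs per 10,000 + 0.1). Alternatives were DESeq2 1.42.0, library size only, no low-count filter, no block, a wider gate margin, doublets kept, limits applied to UMI counts, cells with at least 3000 UMIs, run HHFFMCCX2, leaving out pool 13, and thinning to 2000 UMIs. The floor of a gene without UMIs covers counting error only.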

Additional observations from a re-analysis of the deposited data

Results flagged for a closer look

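Of 8 sets of 4 T-cell-like pools tested with Dixon's rule, 2 had a pool far from the others, where chance gives about 1 in 20. *Alpl* was at 1.28 UMIs per 10,000 in T-cell-like cells of pool 5 against 0.270 to 0.440 in pools 6, 8 and 14. Pool 5 had 29 T-cell-like cells and also the highest LMP-like (17.9) and MALP-like (6.06) level of *Alpl*. The part of free RNA or of doublets in this value was not tested. *Slc20a1* was at 0.430 UMIs per 10,000 in T-cell-like cells of pool 14 against 0.301 to 0.313 in pools 5, 6 and 8. These *Slc20a1* levels rest on 92 UMIs, with 8 in the lowest pool. Their SD over the mean was 0.18, below the 0.24 that counting error alone gives on average, so the flag does not show a difference between pools. For *Alpl* in T-cell-like cells (120 UMIs) the same values were 0.80 and 0.19.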

How the results depend on the processing

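Of the members' log2 fold changes recomputed under an alternative, 585 kept their side of the threshold, 14 lost a call, 11 gained one and 3 changed sign with a call before or after. Changes of sign among values that were never called are within the 585. Not every member's change could be compared with limits on UMI counts. With limits on UMI counts, which keep cells of 400 to 6200 UMIs and test 5754 genes, with 8 pools for Ocy-like cells and 11 for the tertiles (1993 genes), called genes fell to 2284 (osteoblast-like against LMP-like), 222 (Ocy-like against osteoblast-like), 2806 (MALP-like against LMP-like), 2012 (Ocy-like against LMP-like), 3369 (MALP-like against osteoblast-like), 2536 (MALP-like against Ocy-like) and 201 (tertiles). Under these limits 14 levels of members moved by more than 1 SD over pools (22 did not), among them *Smpd3* in Ocy-like cells (3.71 UMIs per 10,000) and *Ifitm5* in LMP-like cells (1.49). *Enpp1* then turned to 0.067 (Ocy-like against osteoblast-like) and *Slc20a1* to -0.55 (tertiles, edgeR adjusted p = 0.040), and calls were lost for *Enpp1* and *Ank* (osteoblast-like against LMP-like), *Ank* and *Smpd3* (Ocy-like against osteoblast-like), *Enpp1* (MALP-like against LMP-like) and *Ank* (Ocy-like against LMP-like and MALP-like against osteoblast-like). With library size only, 5444 genes were called between the tertiles and *Ank* turned to 8.2e-05 (MALP-like against osteoblast-like). Between MALP-like and Ocy-like cells *Enpp1* lost its call and *Ank* gained one, higher in MALP-like cells. The causes were not tested. Without the pool block 921 genes were called between the tertiles, against 3471 with it, *Enpp1* (Ocy-like against osteoblast-like) and *Ifitm5* (tertiles) lost their calls, and the pairing changed no other call of a member. Run HHFFMCCX2 and leaving out pool 13 changed the call of no member between gates. Depth limits *Phospho1* most, with 14 UMIs in MALP-like cells; its mean there moved by -42.7% in run HHFFMCCX2. *Smpd3*, *Slc13a5* and *Ifitm5* in MALP-like cells rose to 0.503, 0.322 and 0.453 UMIs per 10,000 with doublets kept.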
